A study of Mus musculus with 16 samples.

Results

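The arrays compared here were the 8 hybridised with RNA of vehicle-exposed mice, out of 16 arrays in the series: 4 titled GFP+ cells and 4 titled GFP- cells, chosen by their titles and paired by replicate number. Each pair came from 1 pool of 3 mice whose dissociated olfactory mucosa, the sensory lining of the nose, was sorted by fluorescence into cells with and without green fluorescent protein (GFP). All 24 mice of the series were C57BL/6 animals of both sexes, 7 to 12 weeks old, and carried S100a5-tauGFP, a reporter in which GFP fused to tau is driven from S100a5. Each mouse spent 40 h alone in a chamber supplied with clean air at 3.1 L/min, and from 26 h on a 10 s stimulus came every 20 min. In the groups used here the stimulus was filtered air, the vehicle. The other 8 arrays, with the same sort in 4 pools exposed to undecanal, a fatty aldehyde odorant, served as a repeat in other mice. The question of the comparison is which mRNAs tell the sorted fractions apart when no test odorant is given. A pool mixes 3 mice and a fraction mixes every cell type that fell in its gate, so a lower level of a gene can come from fewer cells of a type or from less RNA per cell, which cannot be told apart in such samples.

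Olfactory sensory neurons detect odorants through odorant receptors, a large family of G protein-coupled receptors of which each mature neuron expresses mainly a single member. Receptor binding raises cyclic AMP, which opens a cation channel, and transcription of S100a5 in these neurons depends on that activity. New neurons arise throughout life from basal cells of the same epithelium, which also holds supporting (sustentacular) cells, glands and microvillar cells, and lies over a blood-filled lamina propria.

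Levels are log2 values of the deposited probe set summaries, so a difference of 1 is a 2-fold difference. Every difference below is titled GFP+ minus titled GFP- within the same pool, averaged over the 4 vehicle pools. A gene is called higher or lower where the Benjamini-Hochberg adjusted p of limma, with the pool as a block, was under 0.05 over 22206 probe sets. These p-values and the SEs rest on how the difference within a pool varied from pool to pool, over the 8 vehicle and undecanal pools together. In addition, limma draws the variance of each probe set towards a common value estimated from all of them. Each mean rests on 4 vehicle pools, which limits the precision. A level under log2 4.8 counts as background: vomeronasal and bitter taste receptors have 358 probe sets, and 95% of their group means lie below it. Across arrays of a group the levels correlated with r from 0.990 to 0.993, and between the fractions with r from 0.957 to 0.969.

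For every array the title and the listed characteristics disagree on the sign of GFP, and the reporter gene went against the titles. S100a5, a calcium-binding protein, read 16.91, 16.37, 16.37 and 16.66 on the 4 arrays titled GFP- and 15.62, 15.66, 15.54 and 15.84 on those titled GFP+, pools 1 to 4 in that order. Each array titled GFP+ lay below every array titled GFP-, so the library titled GFP+ held less mRNA of the gene from which the reporter is driven. The difference was -0.91 (SE 0.152, limma adjusted p = 0.0017), which is 1.88-fold. The fractions are therefore named by title throughout, and if the characteristics are right each difference between them turns sign.

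The other genes on the list of activity-raised neuron genes went with S100a5. The list includes S100a5 itself and was chosen with earlier results of these data known, so its count is no independent test of direction. All 5 measured members were called lower in arrays titled GFP+, with a median of -1.46, where 6.35% of all probe sets were called lower, 15.8% were called in either direction and the median was -0.11. Lrrc3b, a leucine-rich repeat membrane protein, read 13.68, 13.27, 12.51 and 14.35 on arrays titled GFP- and 11.50, 11.29, 10.78 and 12.75 on those titled GFP+. The groups overlapped, since pools differed by more than 1.5 in level, but within each pool the array titled GFP+ was lower, by 1.60 to 2.19 as sizes. Its mean difference was -1.88 (SE 0.140, limma adjusted p = 3.58e-06). Pcp4l1 (-1.71), the protocadherin Pcdh10 (-1.46) and Kirrel2 (-1.16), an adhesion molecule of olfactory axons, were lower in 4 of 4 pools too. In undecanal pools the same 5 genes differed by -0.85 to -1.59.

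**Figure D1:**
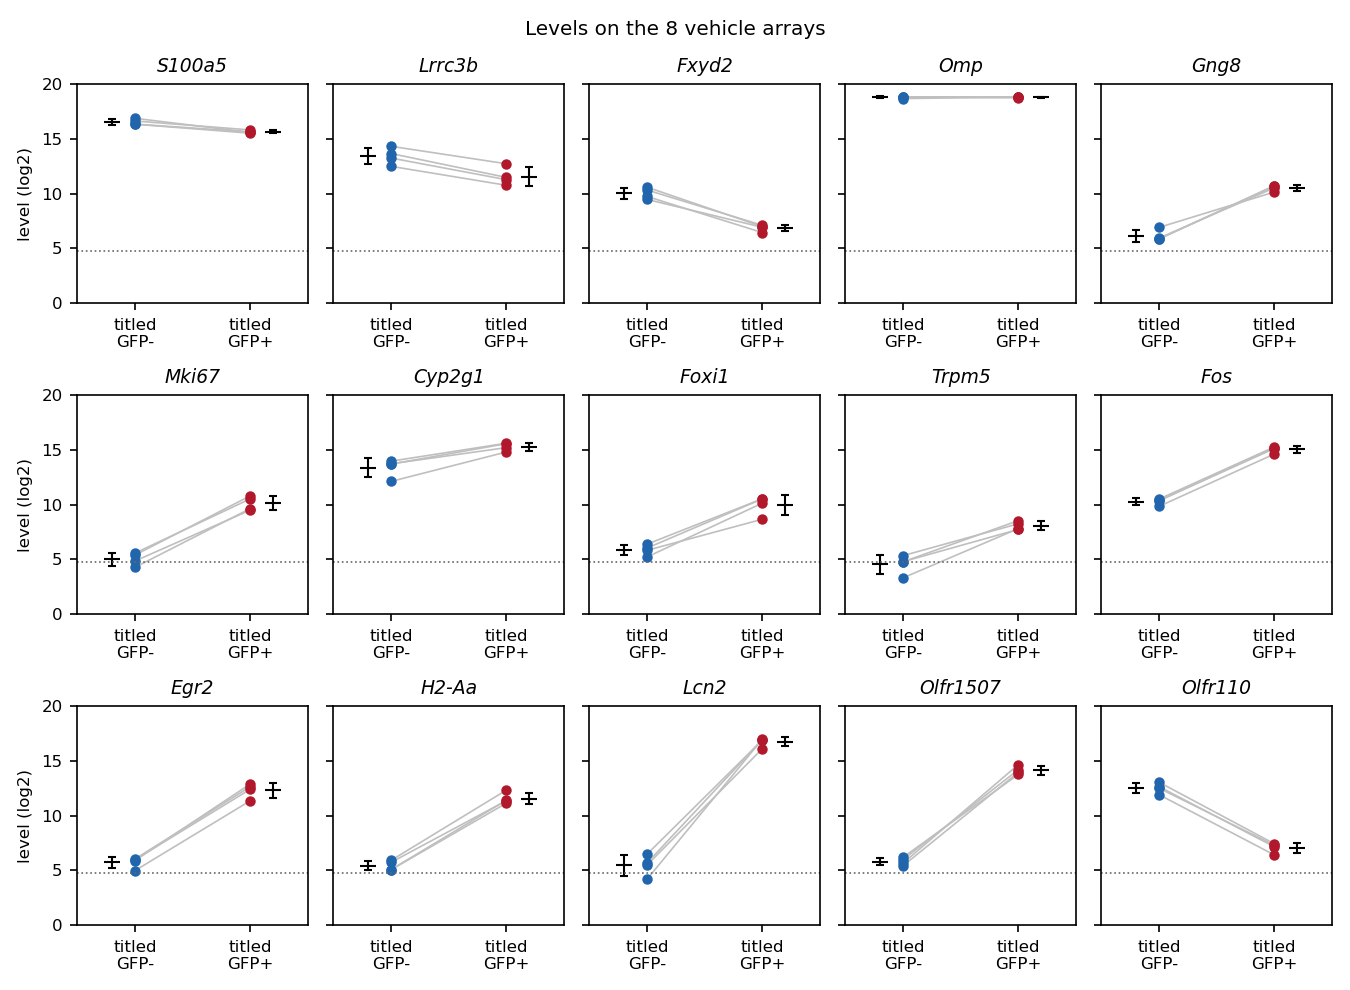
Level (log2) of 15 genes on the 8 vehicle arrays, with titled GFP- arrays in blue and titled GFP+ arrays in red. Grey lines join the fractions of a pool, the black marks give the mean and SD of 4 arrays and the dotted line is the background level of 4.8; Omp sits near 18.8 in both fractions while S100a5, Lrrc3b, Fxyd2 and Olfr110 fall and the other 10 genes rise towards titled GFP+.

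Of 22206 probe sets, 2093 (9.43%) were called higher and 1410 (6.35%) lower in arrays titled GFP+. Lower calls numbered 836 without pool 1, 908 without pool 2 and 923 without pool 3. The counts by size differed between the directions. Outside the odorant receptors, 1210 probe sets were called higher by at least 1 and 80 lower by at least 1, and at a size of at least 2 the counts were 576 and 7. At a size of 4 or more, 171 such probe sets were higher and 0 lower. Detection had the same lopsidedness: 351 probe sets (1.58%) were above background on all 4 arrays titled GFP+ and below it on all 4 titled GFP-, and 26 (0.117%) the reverse. Of those 26, 6 were odorant receptors, among them Olfr1105, Olfr1121 and Olfr376. With the background set at the 50th percentile in place of the 95th the 351 became 85, and the 26 became 38. How the calls split between directions was set in part by the scaling. Median centring of the arrays gave 1632 higher and 12282 lower calls and shifted the median of all differences from -0.11 to -0.47, and quantile normalization gave 2020 and 2209. Differences below are relative to the deposited scaling, and small ones need that in mind.

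**Figure D2:**
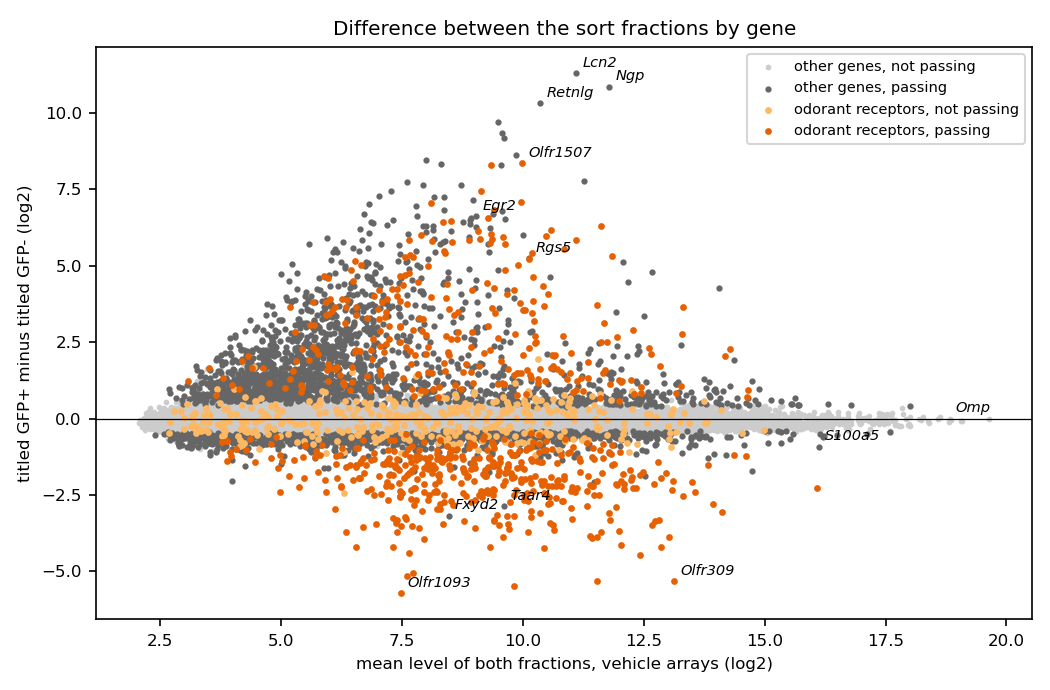
Difference between the fractions (log2, titled GFP+ minus titled GFP-, mean of 4 vehicle pools) against the mean level (log2) for each gene, with odorant receptors in orange and other genes in grey, dark where they passed. Genes outside the receptors reach 11.31 upwards (Lcn2) and -3.18 downwards (Fxyd2), while receptors spread from -5.71 (Olfr1093) to 8.35 (Olfr1507).

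Genes that define mature olfactory neurons were called at a share of 14.3%, close to the 15.8% of all probe sets. Omp, the olfactory marker protein, read 18.87, 18.71, 18.87 and 18.87 on arrays titled GFP- and 18.82, 18.84, 18.80 and 18.84 on those titled GFP+. The groups overlapped, and the difference was -0.00 (SE 0.114, limma adjusted p = 0.9875), near the top of the range of deposited values, 19.71. With median centring Omp was called lower (-0.36), so its direction rests on the scaling. Of 14 genes of mature neuron identity 0 were called higher and 2 lower, with a median of -0.27, and under median centring 12 were lower. The potassium channel subunit Kcnmb3 differed by -1.30 (SE 0.147, limma adjusted p = 9.69e-05) and Cidea, a lipid droplet protein, by -1.18 (SE 0.180, limma adjusted p = 9.08e-04).

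Of 16 measured genes of olfactory signal transduction, 4 were called lower and 2 higher (13 lower and 2 higher under median centring). Their median was -0.16, while the mean over members ran from 0.33 to 0.43 in the 4 pools, raised by Rgs2 and Gnas. The G protein subunit Gnal (-0.15), the adenylyl cyclase Adcy3 (-0.34) and the channel subunits Cnga2 (-0.13) and Cnga4 (-0.07) did not pass. The members called lower act on cyclic AMP removal, calcium extrusion and chloride current: Pde1c (-0.65), the exchanger Slc24a4 (-0.60), Pde4a (-0.53) and the channel Ano2 (-0.51). Pde1c read 15.76, 15.92, 15.77 and 15.94 on arrays titled GFP- and 15.10, 15.15, 15.27 and 15.26 on those titled GFP+, with no overlap (SE 0.125, limma adjusted p = 0.0041). The calls of Slc24a4 and Pde4a each ended when vehicle pool 1, 2 or 3 was left out (limma adjusted p up to 0.0751 and 0.1378), and that of Ano2 without pool 3 (0.058). The members called higher were Gnas, a G protein subunit of immature neurons and of many other cells, and Rgs2, which dampens G protein signalling. Gnas read 6.99, 6.47, 6.99 and 7.16 on arrays titled GFP- and 10.79, 10.75, 10.45 and 10.84 on those titled GFP+, a difference of 3.80 (SE 0.178, limma adjusted p = 1.22e-07). Rgs2 lay between 2.37 and 2.92 on arrays titled GFP-, below background on all 4, and between 8.01 and 9.04 on those titled GFP+, at least 12.4-fold higher.

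Some genes of neuronal excitability and release were lower in arrays titled GFP+ by small amounts. Of 17 presynaptic genes 6 were called lower and 0 higher, with a median of -0.38, and 15 were lower under median centring. Syn2, a synapsin that tethers vesicles, read 13.71, 14.20, 13.92 and 13.78 on arrays titled GFP- and 12.96, 12.96, 13.23 and 13.08 on those titled GFP+ (-0.85, SE 0.147, limma adjusted p = 0.0022). Syn1 differed by -0.92, and the vesicle proteins Sv2a and Sv2b by -0.70 and -0.57. With 1 pool left out 3 to 4 of the 17 were called, and Cplx2, Sv2a and Snap25 were among those lost. Of 18 voltage-gated channel genes 3 were called lower (Kcnh2 -0.63, Hcn2 -0.56 and Scn2a -0.48), a share of 16.7% close to the 15.8% of all probe sets called. With 1 pool left out 0 to 2 were called lower, and under median centring 15. Of 20 axon guidance and sorting genes 7 were called lower, led by Pcdh10, Kirrel2 and the ephrin receptor Epha5 (-0.85), and Sema3a was called higher (0.79). Pcdh10 and Kirrel2 are also on the activity-raised list. The Sema3a call ended without pool 2, 3 or 4 (limma adjusted p up to 0.1152). From 4 to 5 genes were called lower with 1 pool left out, and 13 under median centring. Of 20 clustered protocadherins, cell surface molecules of neuronal self-recognition, 6 were called lower (median -0.48), 1 to 5 with a pool left out, 12 with quantile normalization and 19 under median centring. Beside these stand the vomeronasal and bitter receptors, the family that set the background level, which had a median of -0.28 with 21 of 358 called lower and 1 higher, and 217 lower under median centring.

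Among named genes outside the receptors, the largest lower call was Fxyd2, a regulatory subunit of the sodium pump. It read 9.75, 9.48, 10.35 and 10.61 on arrays titled GFP- and 6.45, 6.93, 7.11 and 6.99 on those titled GFP+. The groups were far apart, and the difference was -3.18 (SE 0.189, limma adjusted p = 6.42e-07), or 9.05-fold lower. Avp, which encodes the vasopressin precursor, differed by -1.80 (SE 0.206, limma adjusted p = 1.03e-04), from 7.65 to 8.74 on arrays titled GFP- and from 6.21 to 6.58 on those titled GFP+. Caly (-1.71), which acts in vesicle endocytosis, the dense-core vesicle protein Ptprn (-1.65) and the potassium channel subunit Kcng1 (-1.59) were lower in 4 of 4 pools as well. Deup1 (-1.63), which acts in the amplification of centrioles, was called lower together with 2 of the other 12 ciliated cell genes measured, Ccdc113 (-1.18) and Dnah9 (-0.51). The Dnah9 call ended without pool 1, 3 or 4 (limma adjusted p up to 0.1377).

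Genes of immature olfactory neurons were higher in arrays titled GFP+ where they moved. Of 19 measured, 11 were called higher and 0 lower, with a median of 0.47, against 8 higher and 5 lower under median centring. Gng8, the G protein gamma subunit of immature olfactory neurons, read 6.92, 5.85, 5.87 and 5.94 on arrays titled GFP- and 10.16, 10.74, 10.70 and 10.54 on those titled GFP+. The groups were well apart and the difference was 4.39 (SE 0.264, limma adjusted p = 7.07e-07), a 21.0-fold difference. Gap43, a growth cone protein, differed by 2.57, Dpysl3 by 3.94 and Tex15 by 3.80. Other genes of young neurons did not pass, among them Dcx (-0.22), Tubb3 (0.11) and Ncam1 (-0.26). With 1 pool left out 8 to 9 were called higher, and Stmn2 (0.47), Dbn1 (0.47) and Dpysl5 (0.66) were those whose calls ended.

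Progenitor and cell division genes moved the same way. Of 18 neurogenic transcription factors and progenitor genes 11 were called higher and 0 lower, with a median of 0.73, against 8 higher and 6 lower under median centring. Nhlh1, a transcription factor of newly born neurons, read 5.51, 4.83, 5.25 and 4.40 on arrays titled GFP- and 9.39, 8.91, 9.55 and 10.09 on those titled GFP+ (4.49, SE 0.319, limma adjusted p = 2.55e-06). Kit, a receptor kinase of globose basal cells and also of mast cells, was below background on all 4 arrays titled GFP-, and at least 5.48-fold higher in those titled GFP+. Sox11 differed by 3.00 and Sox2, also found in sustentacular cells, by 1.43, while Lhx2 (-0.05), Ebf1 (-0.10) and Emx2 (-0.15) did not pass. Of 25 cell cycle and replication genes 19 were called higher and 0 lower, with a median of 1.42, and 16 to 19 with 1 pool left out. Mki67, a marker of cycling cells, read 5.40, 4.27, 5.57 and 4.85 on arrays titled GFP- and 10.82, 9.65, 10.54 and 9.51 on those titled GFP+. The levels on arrays titled GFP- straddled background, those titled GFP+ were far above it, and the difference was 5.11 (SE 0.283, limma adjusted p = 3.80e-07). Rrm2, a subunit of the enzyme that makes deoxynucleotides, differed by 3.15 and Ccnb2, a mitotic cyclin, by 2.68. Histones, whose genes are expressed mostly in dividing cells, were called higher in 33 of 59 cases and lower in 1, with a median of 0.67 (H2ac15 2.49, H2ac10 2.14), and 24 to 30 were higher with a pool left out. Marrow-derived cells also divide, and how much of these differences the blood cell genes described below account for was not tested.

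Supporting cell genes were higher as well, from a base that was high in both fractions. Of 13 sustentacular cell genes 9 were called higher and 0 lower, with a median of 1.92, and 0 were below background in either fraction. Cyp2g1, an olfactory cytochrome P450, read 13.99, 12.13, 13.75 and 13.72 on arrays titled GFP- and 15.63, 14.83, 15.23 and 15.59 on those titled GFP+. The groups did not overlap, and the difference of 1.92 (SE 0.188, limma adjusted p = 3.01e-05) is 3.79-fold. Cyp1a2 differed by 2.72, the sulfotransferase Sult1c1 by 2.52, Cyp2a5 by 2.41 and the keratins Krt18 and Krt8 by 3.62 and 2.83. Of 10 Bowman gland genes 4 were called higher, but Ltf (7.65) is also a neutrophil granule gene and Sox9 (3.82) also marks microvillar cells. The odorant-binding protein genes Obp1a (0.07, below background) and Obp2a (0.31) did not pass. Of 11 horizontal basal cell genes 2 were called higher, Cd44 (at least 32.4-fold) and Itga6 (1.48), both also present on blood cells, and the defining genes Krt5, Krt14 and Trp63 were below background in both fractions. Among 20 genes of aldehyde metabolism 4 were called higher and 0 lower, Aldh2 (3.49), Aldh9a1 (at least 2.53-fold), Adh1 (1.49) and Aldh1a1 (1.32), and the list median was 0.08 as deposited and -0.27 under median centring. The shares called, 18.2% of horizontal basal and 20.0% of aldehyde genes, lay near the 15.8% of all probe sets.

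Genes of both kinds of microvillar cell were higher in arrays titled GFP+. All 9 genes listed for Foxi1 microvillar cells, a rare ionocyte-like type, were called higher, with a median of 3.10, and again all 9 with any pool left out. Foxi1, the transcription factor that defines them, read 6.39, 5.22, 5.83 and 6.03 on arrays titled GFP- and 10.54, 10.15, 8.67 and 10.54 on those titled GFP+. Pool 3 was the lowest of the titled GFP+ arrays, still above all titled GFP-, and the difference was 4.11 (SE 0.330, limma adjusted p = 6.57e-06). Hepacam2 differed by 5.77, the chloride channel Cftr by 3.61, and the proton pump subunit Atp6v0d2 was at least 4.55-fold higher. Of 14 genes of Trpm5 microvillar cells, which resemble tuft cells, 13 were called higher and 0 lower, with a median of 2.05. Trpm5, the cation channel that names them, read 4.77, 4.79, 3.31 and 5.34 on arrays titled GFP- and 8.55, 7.74, 7.82 and 8.26 on those titled GFP+. The titled GFP- mean was below background, and the difference amounts to at least 8.93-fold (limma adjusted p = 6.83e-05). The transcription factor Pou2f3 differed by 2.39 and Alox5ap, which myeloid cells also express, by 4.90, and the cytokine Il25 was at least 2.67-fold higher. By contrast the defining genes of guanylate cyclase D neurons, Gucy2d and Cnga3, were below background in both fractions. The 5 of 9 genes of that list called higher were Pde2a (3.43) and 4 Ms4a genes, a family that blood cells also express: of 18 Ms4a genes 9 were called higher and 1 lower. Both means were below background for Ms4a8a (1.15), 1 of those 4, and for Ms4a5 (-0.60), the gene called lower. The Ms4a5 call ended without pool 1, 2 or 3 (limma adjusted p up to 0.0966).

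The largest differences of all lay in genes of blood cells. Lcn2, the iron-trapping lipocalin of neutrophil granules, read 6.48, 4.18, 5.67 and 5.48 on arrays titled GFP- and 16.93, 17.01, 16.97 and 16.14 on those titled GFP+. The 4 arrays titled GFP- lay near background and those titled GFP+ far above it, a difference of 11.31 (SE 0.360, limma adjusted p = 1.38e-08). Neutrophils make their granule proteins at successive stages of maturation, and the lists follow these stages. The 10 secondary granule genes had a median of 6.89 with 10 called higher, the 16 late granule and secreted genes 4.44 with 14 higher, and the 8 primary granule genes, made by promyelocytes of the marrow, 1.94 with 6 higher. Mpo, the myeloperoxidase of primary granules, read 5.74, 5.22, 4.92 and 4.32 on arrays titled GFP- and 11.78, 11.00, 11.39 and 10.70 on those titled GFP+ (6.17, SE 0.300, limma adjusted p = 1.55e-07). No difference between these lists was tested.

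Genes listed for several other blood lineages were also called higher in arrays titled GFP+. Of 17 monocyte and macrophage genes 15 were called higher and 0 lower (median 2.43), 11 to 15 with a pool left out. Lyz2, lysozyme, differed by 8.62 and Csf1r, the receptor that sustains macrophages, was at least 6.03-fold higher. H2-Aa, an MHC class II chain of antigen-presenting cells, read 5.91, 5.07, 5.73 and 5.05 on arrays titled GFP- and 12.34, 11.42, 11.38 and 11.15 on those titled GFP+ (6.13, SE 0.309, limma adjusted p = 1.99e-07). In the same list of 11 the dendritic cell receptor Xcr1 was called lower (-0.66) with both means below background, a call that ended without any 1 of the 4 pools (limma adjusted p 0.0588 to 0.1583). Of 8 erythroid genes 6 were called higher (median 2.21), among them Car1 (at least 23.4-fold), Rhag (at least 7.72-fold) and Slc4a1 (3.11). Genes of megakaryocytes and platelets (0 of 6), endothelium (0 of 10) and glia (0 of 9) had no call in either direction. In that order, both means were below background for 3, 8 and 7 of them, so these lists were largely undetected or near it. Median centring gave 2, 3 and 2 lower calls, and quantile normalization 1 higher and 1 lower for glia. Of 11 fibroblast and bone genes 2 were called higher, the matrix protein Dcn (1.26) and Ibsp (0.69, both means below background), and the Ibsp call ended without pool 1 or 3. The share called in that list was 18.2%, near the 15.8% of all probe sets. Among 8 pericyte and smooth muscle genes Rgs5 stood out: it read 7.95, 6.70, 7.66 and 7.71 on arrays titled GFP- and 12.52, 12.66, 12.37 and 13.44 on those titled GFP+ (5.24, SE 0.266, limma adjusted p = 2.06e-07), while Pdgfrb was called lower (at least 1.51-fold) and Tagln and Myh11 stayed below background. The Pdgfrb call ended without pool 2 or 3 (limma adjusted p up to 0.0987), and the call of Acta2 (0.99, both means below background) shrank to 0.58 without pool 2.

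B cell genes differed between pools. Cd79a, a chain of the B cell receptor complex, read 9.88, 10.18, 7.23 and 5.99 on arrays titled GFP+ and 5.07, 4.62, 3.98 and 3.80 on those titled GFP-. Pools 1 and 2 were high and pools 3 and 4 lower, but each array titled GFP+ was above all titled GFP- (3.95, SE 0.698, limma adjusted p = 0.0025). Of 10 genes of mature B and plasma cells 5 were called higher, with a mean difference over the list of 2.94, 2.66, 1.49 and 1.14 in pools 1 to 4, and 3 to 6 were called with a pool left out. Jchain, which joins secreted antibodies, was at least 15.9-fold higher and did not follow that order, at 8.72, 7.88, 9.61 and 8.98 on arrays titled GFP+. Of 7 genes of marrow B cell precursors 2 were called higher, Il7r (3.41) and Vpreb3 (at least 1.43-fold), while the surrogate light chain gene Vpreb1 (-0.33) did not pass. The Vpreb3 call ended without pool 1, 2 or 3 (limma adjusted p up to 0.2046). Of 12 genes of mast cells, basophils and eosinophils 5 were called higher, among them the mast cell protease Cpa3 (1.76) and the basophil protease Prss34 (at least 5.31-fold). Of 13 T and NK cell genes 6 were called higher, among them Cd3e (at least 2.40-fold) and Il2rb (at least 1.15-fold), both below background in arrays titled GFP-, and 3 to 5 were called with a pool left out. Genes of interferon response and MHC class I were called higher in 8 of 15 cases and lower in 1, Ifit1 (-0.89). H2-K1, a class I heavy chain, differed by 3.80 and H2-D1 was at least 7.59-fold higher. B2m, the light chain of MHC class I on nearly all nucleated cells other than neurons, differed by 5.12 (SE 0.247, limma adjusted p = 1.46e-07).

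**Figure D3:**
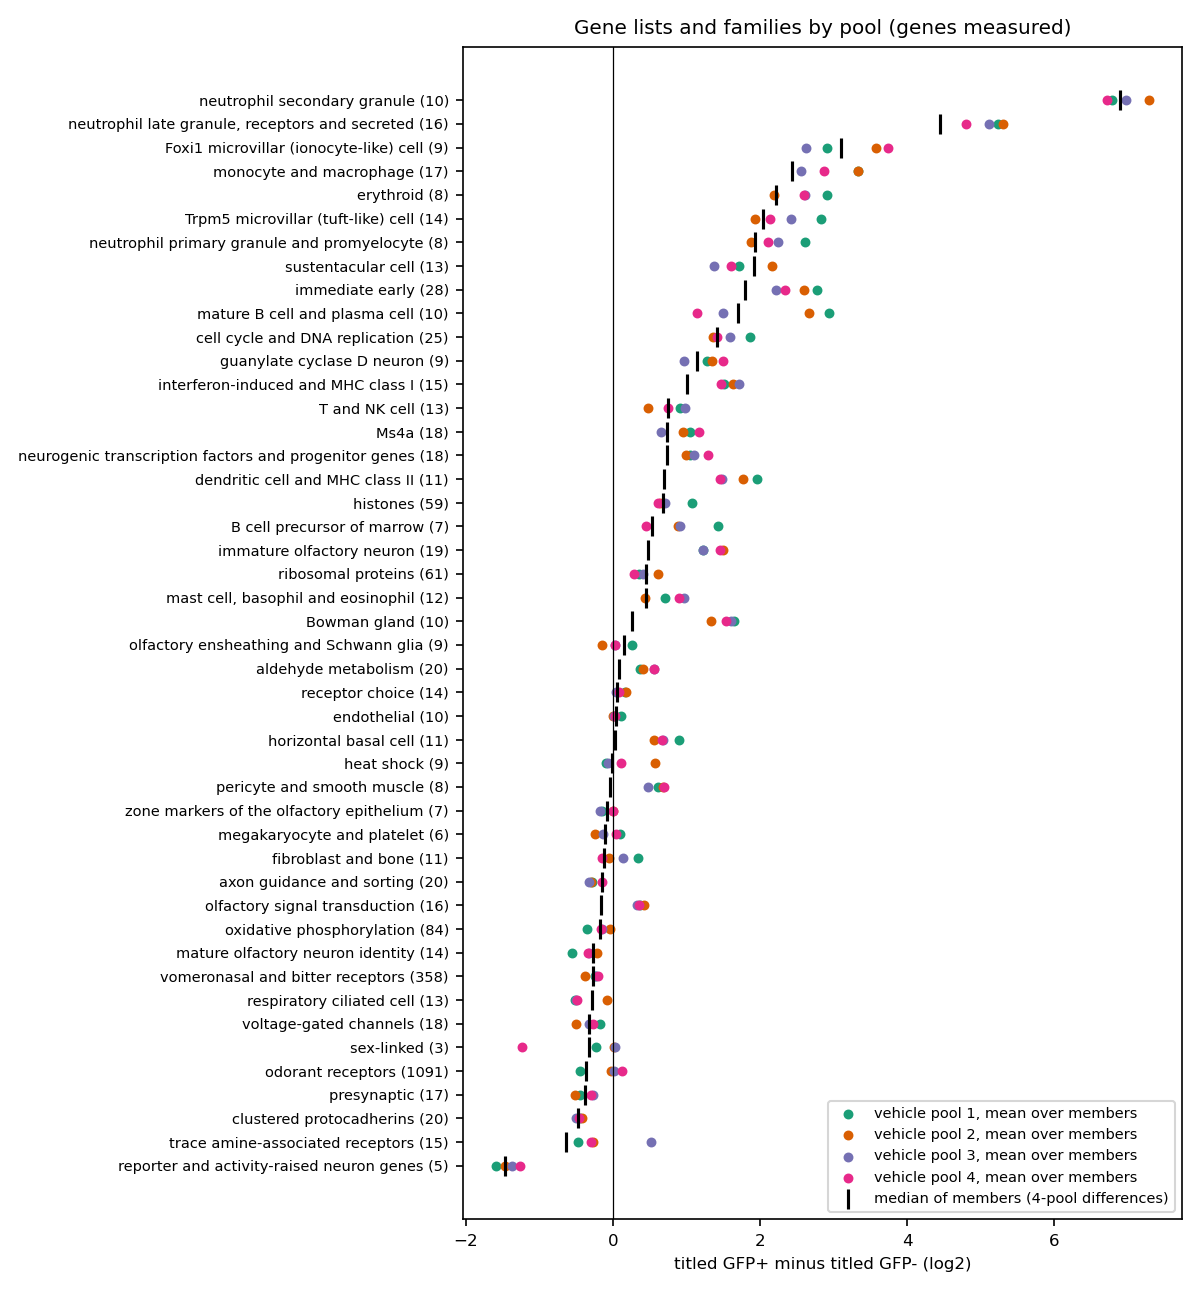
Mean difference over the measured members of each list or family (log2, titled GFP+ minus titled GFP-) in each of the 4 vehicle pools, with the list median as a black bar and the number of genes in brackets. Blood cell lists other than megakaryocyte and platelet, and microvillar, sustentacular and immediate early lists, lie to the right in all 4 pools, mature neuron and presynaptic lists lie close to 0 on the left, and the activity-raised genes lie farthest left.

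Immediate early genes went against the activity-raised neuron genes. They are transcription factors and regulators whose mRNA rises within minutes of a stimulus in many cell types, neurons and blood cells among them. Of 28 measured, 20 were called higher in arrays titled GFP+ and 0 lower, with a median of 1.80, and 17 with any pool left out. Egr2, a zinc finger factor, read 5.90, 6.04, 4.98 and 5.98 on arrays titled GFP- and 12.91, 12.67, 11.38 and 12.43 on those titled GFP+. Pool 3 gave the lowest level in both fractions, so the difference within pools stayed close, from 6.40 to 7.02, with a mean of 6.62 (SE 0.285, limma adjusted p = 7.51e-08). Fos, a subunit of AP-1, read 10.52, 10.40, 9.85 and 10.35 on arrays titled GFP- and 15.29, 15.15, 14.64 and 15.21 on those titled GFP+ (4.79, SE 0.203, limma adjusted p = 6.54e-08), and its 4 pool differences spanned 4.75 to 4.86. Zfp36 (6.36), Egr1 (6.02), Btg2 (5.93) and Fosb (4.87) completed the top of the list. Npas4, an early gene found mainly in neurons, lay between 2.95 and 3.54 on all 8 arrays, below background, with a difference of -0.09. Egr4 (-0.05), Srf (0.30) and Egr3 (0.52) did not pass either. The calls of Dusp1 (0.49) and Ier2 (0.64) ended without any 1 pool (limma adjusted p up to 0.0853 and 0.117), and those of Jun (0.75) without pool 1 or 4 and Arc (0.58, both means below background) without pool 2 or 3. Heat shock genes, another set that responds quickly to stress, had 0 of 9 called, with a median of -0.01. That count rests on the scaling: median centring gave 4 lower calls (median -0.36), and quantile normalization 1 higher and 1 lower. Blood and epithelial cell genes rose in the same arrays, and their part in the immediate early differences was not tested.

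**Figure D4:**
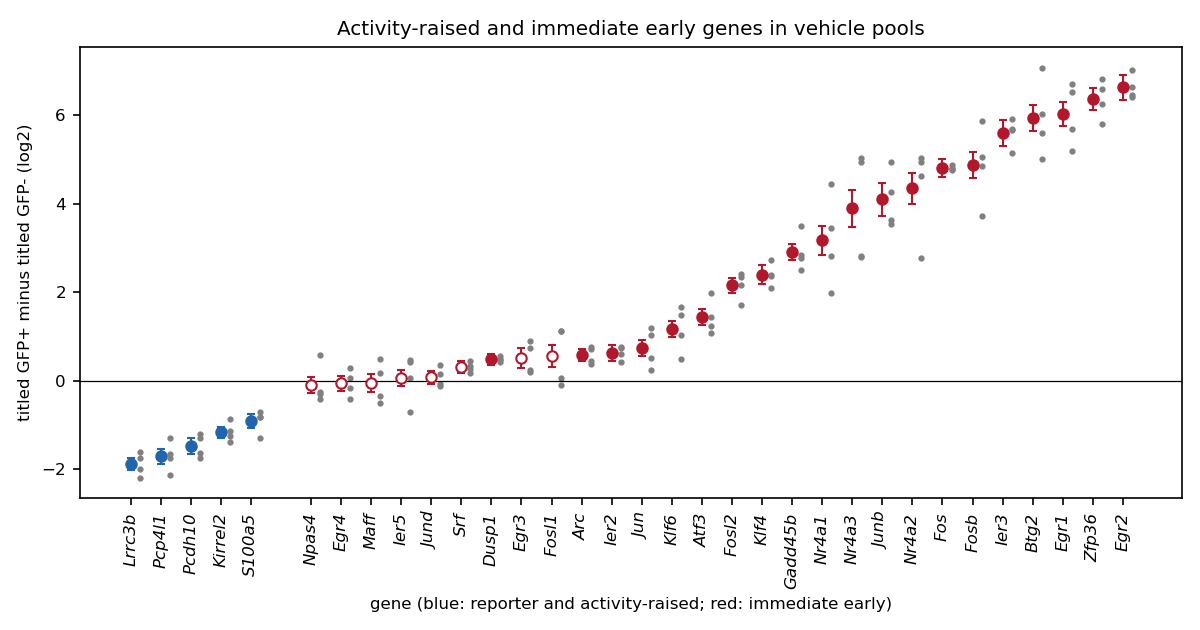
Difference between the fractions (log2, titled GFP+ minus titled GFP-) of the 5 activity-raised genes in blue and the 28 immediate early genes in red. Large points with bars give the mean over 4 vehicle pools with its limma SE, open where the gene did not pass, and small points give each pool; the blue genes lie between -1.88 and -0.91 and the red genes between -0.09 and 6.62.

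As these groups moved in opposite directions, the 250 bases before their RefSeq start sites are shown for genes of each kind (mouse assembly GRCm38.p6, 5′ to 3′ on the strand of the gene). Capitals mark matches, on either strand, to TGACG, the core of the cyclic AMP response element through which CREB acts, or to its full form TGACGTCA, which contains it. Windows were taken for 28 of the genes, 5 activity-raised and 23 immediate early. The early genes Egr1, Egr3, Fosl1, Arc and Ier2 had none, as an entry was missing or their chromosome had been left out beforehand. The S100a5 window lies at chr3:90608272-90608521 on the + strand, that of Lrrc3b at chr14:15438988-15439237 on the - strand, that of Pcdh10 at chr3:45378148-45378397 on the + strand, that of Fosb at chr7:19310046-19310295 on the - strand, that of Nr4a1 at chr15:101266596-101266845 on the + strand and that of Btg2 at chr1:134079156-134079405 on the - strand.
S100a5: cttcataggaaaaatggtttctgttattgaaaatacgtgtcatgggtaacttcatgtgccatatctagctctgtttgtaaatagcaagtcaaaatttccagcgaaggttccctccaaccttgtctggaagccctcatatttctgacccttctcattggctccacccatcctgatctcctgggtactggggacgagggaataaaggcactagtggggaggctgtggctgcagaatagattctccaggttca
Lrrc3b: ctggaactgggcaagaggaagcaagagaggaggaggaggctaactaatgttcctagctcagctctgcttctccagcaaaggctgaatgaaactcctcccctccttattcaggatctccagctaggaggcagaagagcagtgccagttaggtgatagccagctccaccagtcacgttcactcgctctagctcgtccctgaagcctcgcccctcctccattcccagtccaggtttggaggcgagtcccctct
Pcdh10: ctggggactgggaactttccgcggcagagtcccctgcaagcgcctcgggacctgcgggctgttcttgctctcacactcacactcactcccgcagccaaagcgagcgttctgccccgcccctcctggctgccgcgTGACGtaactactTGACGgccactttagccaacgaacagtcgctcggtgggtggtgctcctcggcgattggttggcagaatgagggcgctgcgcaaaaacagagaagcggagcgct
Fosb: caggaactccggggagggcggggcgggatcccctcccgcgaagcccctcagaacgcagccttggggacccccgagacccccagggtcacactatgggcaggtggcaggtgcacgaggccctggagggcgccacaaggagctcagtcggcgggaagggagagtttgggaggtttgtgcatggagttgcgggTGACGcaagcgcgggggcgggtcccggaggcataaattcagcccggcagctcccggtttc
Nr4a1: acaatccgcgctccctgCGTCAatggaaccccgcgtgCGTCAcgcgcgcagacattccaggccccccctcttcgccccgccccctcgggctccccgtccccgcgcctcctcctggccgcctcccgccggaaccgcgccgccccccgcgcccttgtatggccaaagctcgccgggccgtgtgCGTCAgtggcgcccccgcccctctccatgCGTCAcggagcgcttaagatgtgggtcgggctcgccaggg
Btg2: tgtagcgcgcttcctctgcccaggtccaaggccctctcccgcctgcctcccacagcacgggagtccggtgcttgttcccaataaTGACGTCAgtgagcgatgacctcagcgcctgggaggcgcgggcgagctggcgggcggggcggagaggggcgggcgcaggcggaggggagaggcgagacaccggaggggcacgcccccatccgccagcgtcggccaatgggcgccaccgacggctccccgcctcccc
The windows of S100a5 and Lrrc3b, both lower in arrays titled GFP+, held no match. Those of Fosb, Nr4a1 and Btg2, all higher, held 1, 4 and 2 matches to TGACG. In Btg2 both matches are the opposite strands of 1 full TGACGTCA, which began 166 bases before the start. The pattern did not hold for every gene: the windows of Egr2 and Zfp36, with the largest differences on the list, held 0 matches, and those of Npas4 and Egr4, which did not pass, held 2 each. TGACG was present in 13 of 23 immediate early windows and in 1 of 5 activity-raised ones, that of Pcdh10, which has 2, and in 17.9% of 27025 windows of the same length before RefSeq starts. TGACGTCA was present in 2 of 23 (Btg2 and Dusp1), in 0 of 5 and in 1.62% of all windows. A match describes letters and not a bound site.

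Odorant receptors differed between the fractions in both directions and far more widely than other genes. Of 1091 receptor probe sets 272 were called higher and 422 lower, or 63.6% in all against 15.8% of all probe sets. The SD of the differences across receptors was 2.17, and 0.765 across all other probe sets. Their quartiles were -1.51 and 0.83 with a median of -0.37, and 453 of the 1091 (41.5%) lay within 1 of no difference. At the extremes more receptors were higher than lower: 62 were higher and 14 lower by at least 4, although at 1 or more the counts were 247 and 376. Of the receptors called, 39.2% were higher, and 30.4% with median centring. Probe sets of receptors that are close copies can share signal, so single values are uncertain where sequences are nearly identical.

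Olfr1507 had the largest positive difference. It read 6.19, 5.99, 5.41 and 5.65 on arrays titled GFP- and 13.78, 14.21, 13.97 and 14.68 on those titled GFP+. It was close to background in the first group and far above it in the other, a difference of 8.35 (SE 0.209, limma adjusted p = 4.88e-09), or 327-fold. Olfr390 (7.45), Olfr1384 (7.09), Olfr1447 (6.82), Olfr460 (6.58) and Olfr231 (6.45) were called higher with sizes close behind. Olfr1213 (8.29) held its place though pool 1 was its lowest titled GFP+ array. At the other end Olfr110 read 11.93, 12.67, 12.53 and 13.08 on arrays titled GFP- and 6.41, 7.16, 7.31 and 7.44 on those titled GFP+. Its 4 pool differences ran from -5.64 to -5.22, with a mean of -5.47 (SE 0.175, limma adjusted p = 1.38e-08), or 44.4-fold lower. Olfr309 read 15.79, 15.59, 16.05 and 15.71 on arrays titled GFP- and 8.94, 9.88, 11.84 and 11.21 on those titled GFP+, so the arrays titled GFP+ spread over almost 3 log2 units (-5.32, SE 0.456, limma adjusted p = 1.08e-05). Olfr536 had a like pattern, from 13.14 to 14.71 and from 7.07 to 9.71 (-5.30). Olfr1093 was lower by at least 39.9-fold, with a titled GFP+ mean below background.

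Some receptors varied between pools. Olfr44 read 8.79, 5.72, 9.16 and 5.87 on arrays titled GFP- and 8.41, 6.18, 8.45 and 5.10 on those titled GFP+, so pools 1 and 3 were high in both fractions and the difference between fractions did not pass (-0.35, SE 0.293, limma adjusted p = 0.470). Olfr1322 read 9.24, 5.39, 8.78 and 6.64 on arrays titled GFP- and 12.59, 12.91, 12.52 and 12.91 on those titled GFP+, so the pools differed in the first fraction alone (5.22, SE 0.774, limma adjusted p = 7.24e-04). Bpifb9b, a secreted protein of glands, had the largest spread of any gene above background in a fraction. It read 11.72, 6.26, 6.85 and 5.71 on arrays titled GFP- and 12.78, 6.62, 6.36 and 5.03 on those titled GFP+, so pool 1 stood apart in both.

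Genes that act in receptor choice were called at a share of 14.3%, close to the 15.8% of all probe sets. Of 14 receptor choice genes 2 were called higher, both of heterochromatin: Lbr (1.07), a nuclear envelope receptor whose loss from neurons accompanies maturation, and Cbx5 (0.72), a chromatin protein whose call ended without pool 1. Of 7 zone marker genes 0 were called.

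Receptor genes lie in clusters, and the direction of a difference was described along them with the gene order of the RefSeq table. Receptors were cut into runs wherever neighbours were more than 1 Mb apart, which gave 49 runs, 16 of them with at least 20 receptors. In the run from Olfr172 to Olfr209, 15 of 25 receptors were called lower and 4 higher (median -1.48), and in that from Olfr160 to Olfr986 53 of 96 were lower and 14 higher (median -0.98). In the run from Olfr376 to Olfr412, 15 of 30 were higher and 4 lower (median 0.92), in that from Olfr9 to Olfr827 25 of 56 were higher and 6 lower (median 0.58), and in that from Olfr459 to Olfr47 7 of 20 were higher and 0 lower. Direction was still mixed within runs: Olfr1507, the most strongly higher receptor, sits at the end of a run in which 20 of 36 were lower. Of 1042 pairs of neighbours in the same run, both were called in 425, and in 282 of these (66.4%) the direction was the same, where the overall shares of higher and lower calls multiply to 52.3%. Neighbours can share sequence and so probe signal, and no test was made of the runs.

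**Figure D5:**
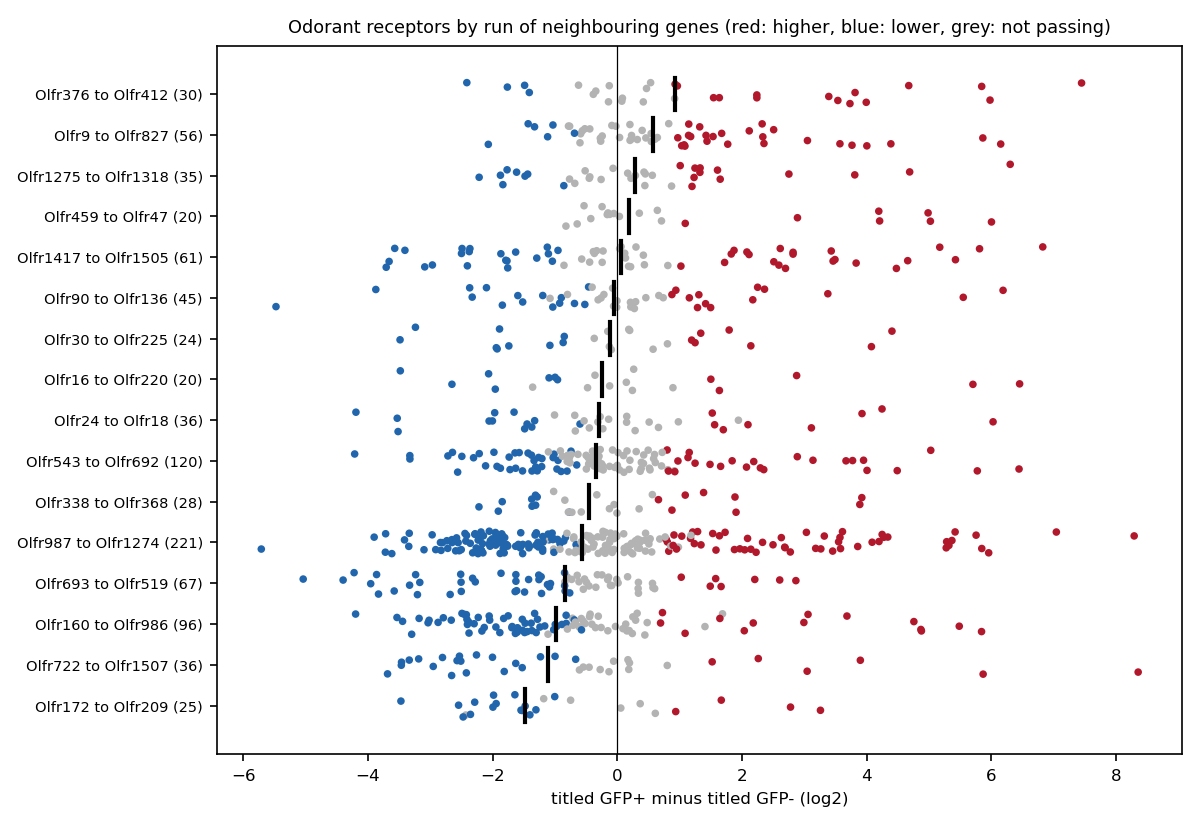
Difference between the fractions (log2, titled GFP+ minus titled GFP-) of each odorant receptor in the 16 runs of neighbouring genes with at least 20 receptors, with the run median as a black bar. Red points were called higher, blue points lower and grey points did not pass; medians run from -1.48 (Olfr172 to Olfr209) to 0.92 (Olfr376 to Olfr412), and most runs hold points of both colours.

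Trace amine-associated receptors, a small family that detects amines in its own set of neurons, were divided in the same way. Of 15 measured 5 were called higher and 6 lower, with a median of -0.63, though the mean over members was 0.52 in pool 3. Taar4 read 10.71, 11.06, 11.42 and 10.93 on arrays titled GFP- and 7.45, 7.89, 9.50 and 7.87 on those titled GFP+ (-2.85, SE 0.272, limma adjusted p = 2.52e-05). Taar2 read 7.23, 6.74, 6.51 and 7.71 on arrays titled GFP- and 9.58, 10.47, 11.06 and 10.37 on those titled GFP+ (3.32, SE 0.368, limma adjusted p = 8.12e-05). The groups did not overlap for either gene. Taar9 (-2.07) and Taar3 (-1.75) went with Taar4, while Taar7a (1.88), Taar6 (1.77) and Taar7f (1.67) went with Taar2. The Taar7 genes were themselves mixed: Taar7b was called lower (-1.36, limma adjusted p = 0.0069), and Taar7e (-0.63) did not pass. Taar7d (0.92) was called higher, but not without pool 2 or 3 (limma adjusted p up to 0.1062), and without pool 3 its value was 0.58. The Taar7 and Taar8 genes are near copies, so their values can share signal.

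Genes of general cell machinery were compared last. Of 84 oxidative phosphorylation genes 1 was called higher and 3 lower, with a median of -0.18, but 73 were called lower under median centring, so the number of calls rests on the scaling. Of 61 ribosomal protein genes 28 were called higher and 0 lower, with a median of 0.46 that fell to 0.10 with median centring, where 11 were higher and 5 lower. Rps16 read 11.15, 10.21, 10.90 and 10.98 on arrays titled GFP- and 12.08, 11.87, 11.91 and 11.88 on those titled GFP+ (1.12, SE 0.156, limma adjusted p = 4.47e-04). With 1 pool left out 15 to 19 ribosomal genes were called higher. Of 3 sex-linked genes, all on the Y chromosome, 0 were called, but the fractions of pool 4 differed: the mean over the list was -0.23, 0.02, 0.03 and -1.24 in pools 1 to 4, and 2 were called lower under median centring.

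The undecanal pools gave the same contrast in other mice. There 3259 probe sets (14.7%) were called, 2065 (9.3%) higher and 1194 (5.38%) lower. Of the 3503 called in vehicle pools 2464 were also called in undecanal pools, 70.3% of the vehicle calls and 75.6% of the undecanal calls, and 3429 had the same sign. Both contrasts came from the same fit with the same SE for each probe set, so the calls of both agents are not independent. The sign of a difference in undecanal pools does not use that SE. Among receptors 689 of 694 had the same sign and 621 were called again. The differences of Lcn2 (11.48), Egr2 (6.82), Foxi1 (3.76), Olfr1507 (8.67) and Olfr110 (-5.65) in undecanal pools lay close to those in vehicle pools. No probe set passed the test of whether the difference between fractions changed with the agent (0 of 22206 in limma, 0.0%). Before adjustment, p was under 0.05 for 860 of 22206, a smaller share than the 0.05 due where no difference changes with the agent. With 4 pools for each agent, a difference that misses this threshold is not shown to be absent.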

How the data were processed

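RNA from sorted cells was hybridised to mouse whole-transcript arrays. Values are the deposited log2 levels; the submitters' processing notes name Affymetrix Expression Console as the authors' software. Which algorithm and annotation build it used is not given in the sources used here. Of 28846 deposited table entries 6640 controls were removed and 22206 probe sets tested, of which 19572 name 1 gene and 2634 none; the highest-level probe set stood for each of 55 genes with several. Any summary that adjusts arrays to a shared distribution changes small differences, as the scaling alternatives show.

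Groups follow the sample titles. limma 3.58.1 in R 4.3.3 fitted all 16 arrays with the 8 pools as a fixed block and the fraction within each agent, with Benjamini-Hochberg adjustment over all probe sets and a threshold of 0.05. The labels place 24 mice in groups of 3, so same-numbered arrays of an agent are 1 pool's fractions. Within vehicle pools 1 to 4, deviations of both fractions correlated with r of 0.229, 0.0989, 0.271 and 0.230. The fit was tested on simulated data. Alternatives covered the block, scaling, background, prior variance, array weights, minimum difference and each pool left out.

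The members and the 38 gene lists were chosen with earlier results of these data known. Named genes were the 15 highest and 15 lowest outside odorant receptors and the 10 highest and 10 lowest receptors among calls of equal sign in 4 pools, up to 5 called members of each list (or the 2 smallest p), up to 3 of each family and direction, the 5 genes of largest SD in each fraction, S100a5 and Omp. Part of these are printed. Genes outside this rule, such as members that did not pass, were chosen after their values were seen. "At least N-fold" sets the brighter group's mean against, per array, the higher of the background level and the dim value.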

Additional observations from a re-analysis of the deposited data

Results flagged for a closer look

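In 19 of 414 groups of 4 arrays, for genes the report could name, 1 array lay far from the other 3 (by Dixon's ratio of gap to range), and chance flags about 1 in 20 groups. All values are log2 levels.

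Among neuron and progenitor genes on arrays titled GFP-, Gng8 read 6.918 in pool 1 against 5.853 to 5.94 in the others, and Sox11 read 8.034 in pool 4 against 7.598 to 7.647. Omp read 18.715 in pool 2 against 18.866 to 18.868, and the vesicle protein Sv2b 11.766 in pool 2 against 12.054 to 12.111. Egr2 read 4.978 in pool 3 against 5.898 to 6.041, and Deup1 5.969 in pool 4 against 6.903 to 6.967.

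Blood and stromal genes on arrays titled GFP- gave 6 more. Jchain read 2.861 and Rhag 3.047 in pool 1, against 4.09 to 4.26 and 2.554 to 2.608. Acta2 read 2.867 and Dcn 5.194 in pool 2, against 3.869 to 4.048 and 6.034 to 6.114. Cd209a read 4.504 and Ms4a3 3.816 in pool 4, against 3.429 to 3.577 and 4.479 to 4.598.

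On arrays titled GFP+, pool 4 stood apart for the neutrophil genes Lcn2 (16.137 against 16.927 to 17.009) and Chil3 (14.072 against 14.393 to 14.451), for Ier3 (9.25 against 9.691 to 9.721) and for the keratin Krt18 (10.173 against 9.742 to 9.776). Among receptors, Olfr1213 read 12.474 in pool 1 against 13.714 to 13.872 and Olfr372 read 5.562 in pool 3 against 4.748 to 4.875, both on arrays titled GFP+. Olfr1178 read 3.55 in pool 2 against 4.856 to 4.987 on arrays titled GFP-.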

How the results depend on the processing

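Scaling moved the total and lower counts most. Median centring gave 13914 calls in vehicle pools, 12282 of them lower, and 13987 in undecanal pools, and quantile normalization gave 2209 lower calls. Higher calls were 59.7% of all calls as deposited, 47.8% with quantile normalization, 54.9% with centring on mature neuron lists and 11.7% with median centring. Under median centring Acsm4 (-0.34) and Cacna2d1 (-0.35) changed sign, as did the medians of the horizontal basal, Bowman gland, endothelial, glial, receptor choice and aldehyde lists. A tested minimum difference of 1 left 943 calls (741 higher, 202 lower), 156 receptors higher and 190 lower, and 921 calls in undecanal pools. With 1 pool left out, lower calls numbered 836 to 1021. With the background at the 50th percentile, 85 probe sets were above it in titled GFP+ arrays alone.

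Without the replicate block, 1959 probe sets were higher and 1138 lower, and of 536 named values 513 kept their direction and side of the threshold, 18 lost the call and 5 gained one. With the pool as a random block 2169 were higher and 1578 lower. The interaction had 0 calls in every setting run. Levels near 4.8 cannot be told from background.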
